A study of Saccharomyces cerevisiae with 18 samples.

Results

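The 9 genes described here are those of the core histones and of the H2A variant H2A.Z in Saccharomyces cerevisiae. HTA1 and HTA2 encode H2A, HTB1 and HTB2 encode H2B, HHT1 and HHT2 encode H3, HHF1 and HHF2 encode H4, and HTZ1 encodes H2A.Z. They were chosen by name, out of 6002 protein-coding genes of the R64 annotation, and every molecule whose mapped span overlapped one of their coding sequences on the same strand was taken, which gave 12737 distinct pairs of ends. The libraries were made by TIF-Seq, in which a full-length cDNA is circularised and sequenced across the junction, so that each read gives the 5' end and the poly(A) site of 1 molecule. Cells were the diploid strain SLS045 (S288c background, WT), harvested at mid-log phase (OD 1), and all groups share that genotype. The galactose groups grew in YPGal with 1% galactose and the glucose groups in YPAD with 1% glucose. The 18 libraries fall into 6 groups. Capped molecules by the standard protocol came from galactose (6 libraries from 4 numbered biological samples) and glucose (6 libraries from 2), and 4 of these 12 libraries, 2 per medium, carried capped Bacillus subtilis spike-ins. Libraries enriched for long mRNAs came from galactose (2 libraries) and glucose (2 libraries). A control library of non-capped molecules came from galactose (1 library) and glucose (1 library).

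The deposited table gives 1 summed column per group, so there is no spread between replicates, and no p-value is given for any comparison. Intervals are exact 95% intervals for counting error only, and they would be too narrow if PCR duplicates of a molecule were counted. Columns held 6425269 reads for galactose and 6290819 for glucose in the standard protocol, 3559614 and 2745847 in the long-enriched one, and 1100551 and 1317650 in the non-capped control. In the standard protocol the galactose column sums 4 biological samples and the glucose column 2, and the medium and the biological sample cannot be told apart. By their labels the long-enriched libraries come from biological samples that also gave standard libraries. A difference seen in both protocols is therefore not a repeat in other biological samples. Reads count for a gene if they span its coding sequence from start to stop codon and no second coding sequence on that strand. A read gives the ends of 1 molecule and not a stretch of it. Levels are therefore given as reads per 1000000 reads of the column (CPM) and are not divided by length. The ratio between the 2 protocols varied with the length of molecules, so CPM is not free of length when genes are compared.

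Histones H2A, H2B, H3 and H4 form the protein core around which DNA is wrapped in the nucleosome, and H2A.Z takes the place of H2A in nucleosomes beside many promoters. In budding yeast each core histone has a pair of genes, arranged as divergent H2A-H2B and H3-H4 couples that share the DNA between them. That DNA holds upstream activating elements bound by Spt10 in this yeast, and transcription of the core genes peaks in S phase, when new chromatin is built. Unlike the replication-dependent histone mRNAs of animals, which end in a stem-loop, yeast histone mRNAs are polyadenylated, so a method that captures poly(A) sites records them.

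The 4 core gene couples lie on chromosomes IV, II and XIV. HTB1 (chrIV:914317-914712, minus strand) and HTA1 (chrIV:915530-915928, plus strand) face away from each other, as do HTA2 (chrII:235394-235792, minus) and HTB2 (chrII:236492-236887, plus), HHF1 (chrII:255373-255684, minus) and HHT1 (chrII:256331-256741, plus), and HHT2 (chrXIV:575640-576050, minus) and HHF2 (chrXIV:576727-577038, plus). HTZ1 stands alone at chrXV:303579-303983 on the minus strand. All coordinates are those of R64, and each of these spans is a coding sequence from start to stop codon.

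A search of both strands in the 500 nt before each start codon for the upstream activating element, written as GNGAANNNNNNNGAAC, found it before 8 of 8 core genes and not before HTZ1. The same letters occurred before 2.68% of the 3581 genes measured here. The genes of a couple share their upstream DNA, so the 8 core genes stand for 4 regions. The element was already known from such regions, so finding it there was no test. The HTA1-HTB1 couple held 3 elements, HTA2-HTB2 held 3, HHT1-HHF1 held 4 and HHT2-HHF2 held 2, and none of the matches overlapped another. The elements of the H3-H4 couples are shown because these couples differ most in how even their outputs are, with the fixed letters of the motif in capitals and each sequence read 5' to 3' on the strand of its match:
HHT1-HHF1 element, chrII:255944-255959, plus strand: GaGAAgcgctcgGAAC
HHT1-HHF1 element, chrII:255979-255994, plus strand: GcGAAgttttcaGAAC
HHT1-HHF1 element, chrII:256042-256057, minus strand: GcGAAaatgtgaGAAC
HHT1-HHF1 element, chrII:256076-256091, minus strand: GaGAAattgtgaGAAC
HHT2-HHF2 element, chrXIV:576346-576361, plus strand: GcGAAgtgctcgGAAC
HHT2-HHF2 element, chrXIV:576432-576447, minus strand: GcGAAgctcccaGAAC
A match is a run of letters and not a measured binding site, and no match in a window says nothing of the factor.

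**Figure D1:**
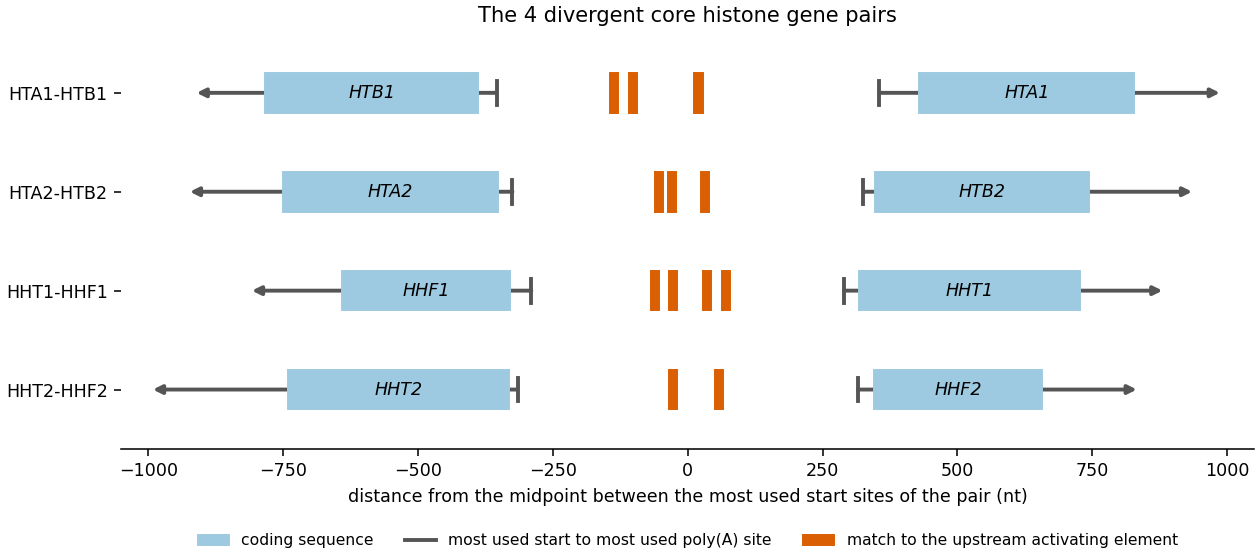
The 4 divergent couples drawn to scale, with the distance in nt from the midpoint between the most used start sites on the x axis. Blue boxes are coding sequences, grey lines run from the most used start site to the most used poly(A) site (arrowhead), and orange marks are the matches to the upstream activating element. The start sites of each couple lie 580 to 709 nt apart and all 12 marks lie between them.

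The start sites of the divergent genes lay far apart compared with other divergent genes. The most used start sites were 709 nt apart in HTA1-HTB1, 650 nt in HTA2-HTB2, 580 nt in HHT1-HHF1 and 631 nt in HHT2-HHF2. Over all 592 divergent gene pairs measured, the median distance was 331 nt and the middle 50% ran from 192 to 588 nt, so 3 of the 4 histone couples lay above that range and HHT1-HHF1 lay within its upper part. The distances between start codons were 817, 699, 646 and 676 nt in the same order.

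The start and poly(A) sites that most molecules used differed between genes in how sharply they were defined. HHT2 and HHF1 are shown for their starts because they have the highest and the lowest share of molecules at the most used start, and HTB1 because its start use differed most between media. The capital marks the first transcribed base at the most used start, read on the gene's strand:
HHT2 start, chrXIV:576052-576081, minus strand: tttactaaaggatccAagcaaacactccac
HHF1 start, chrII:255709-255738, minus strand: ctatagtactaaagcAacaaacaaaaacaa
HTB1 start, chrIV:914732-914761, minus strand: ttatcctatatagacAagtcaaaccacaaa
For the poly(A) sites, HHF2 is shown for its narrow spread, and HTB2 and HTZ1 for their distal groups of sites. The capital marks the last mapped base of the molecule:
HHF2 poly(A) site, chrXIV:577195-577224, plus strand: ataaaagaaactagtttccGaactgtctta
HTB2 poly(A) site, chrII:237060-237089, plus strand: aattgggaaagatattttgCaaacagttat
HTZ1 poly(A) site, chrXV:303409-303438, minus strand: ctatctctcctttcacgtcTaatctcttat
The first base was A in 9 of 9 histone genes and in 82.9% of 3581 genes, and the base before it was a pyrimidine in 9 of 9 and in 98.2%. The genome base after the most used poly(A) site was A in 9 of 9 and in 91.2% of genes, while the site itself was never an A in any of the 3581 genes. A site inside a run of A is thus recorded at the last base before the run, so poly(A) positions carry that offset.

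In the standard libraries the histone genes ran from HHF2, among the most abundant genes, to HTZ1, at rank 597 in galactose and 616 in glucose. HHF2, encoding H4, had the highest level, with 5901 CPM in galactose and 3874 in glucose, and ranked 22 of 4902 genes in galactose and 40 of 4700 in glucose. Its copy HHF1 had 3974 CPM in galactose and 2133 in glucose. The H3 gene HHT2 stood close to HHF2, at 4893 in galactose and 3380.5 in glucose. Its copy HHT1 was far lower in both media, at 293 CPM in galactose and 162 in glucose.

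The H2B gene HTB2 had 4964 CPM in galactose and 3129.6 in glucose, and its copy HTB1 had 576 and 345. The H2A genes were nearly level with each other: HTA2 had 1456 in galactose and 938 in glucose, and HTA1 had 1384 and 926. HTZ1, the H2A.Z gene, was the lowest of the 9 in the standard protocol, at 177 CPM in galactose and 124 in glucose. In the long-enriched protocol HTZ1 had 119 and 83.4 CPM, above HHT1 (68.5 and 40.8) and HTB1 (25.8 and 9.83). HHT2 was the highest there, at 2191 in galactose and 1787 in glucose, and ranked 56 and 82 among all genes. HTB1 ranked 2636 and 3406. By the standard protocol HTB2 exceeded HHT2 by 1.01-fold in galactose (interval 0.999 to 1.03). In glucose HTA2 exceeded HTA1 by 1.01-fold (0.977 to 1.05). These neighbours in the order could not be separated by counting error, whereas the intervals of all other neighbouring pairs in these columns excluded 1.

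**Figure D2:**
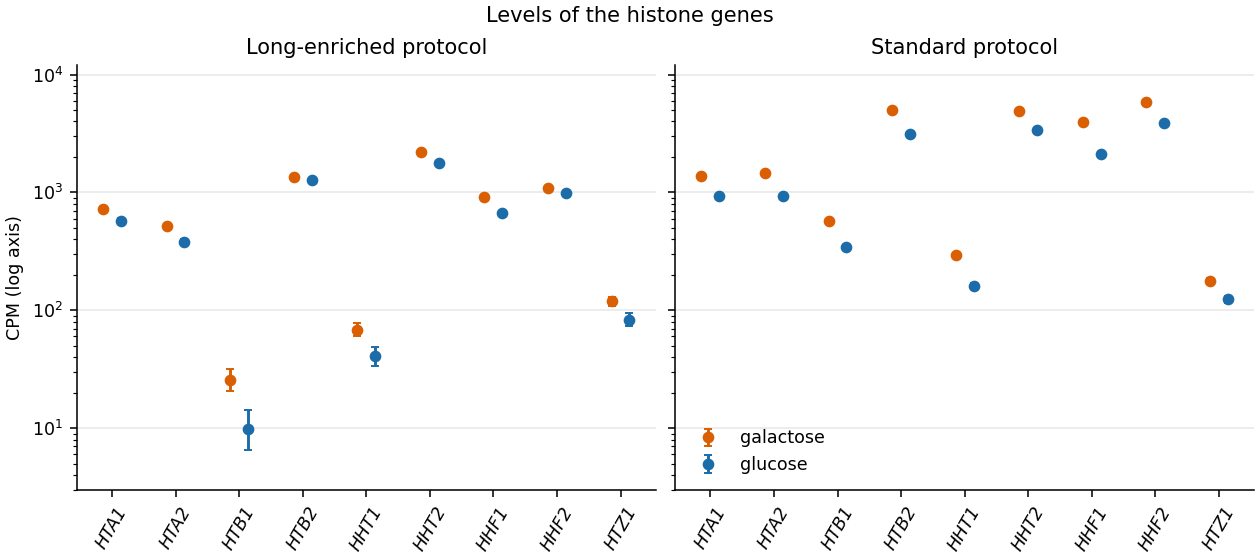
CPM of each column (log axis) for the 9 histone genes in galactose (orange) and glucose (blue), in the long-enriched protocol (left) and the standard protocol (right). Points are summed columns and bars are exact 95% binomial (Clopper-Pearson) intervals, hidden by the point where narrow. HHF2 reaches 5901 in galactose in the standard protocol, and HTB1 drops to 25.8 in galactose and 9.83 in glucose in the long-enriched one.

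Together the 8 core genes gave 2.34% of all reads in galactose (interval 2.33 to 2.36) and 1.49% in glucose (1.48 to 1.50) by the standard protocol. Of the core histone reads, H4 genes took 42.1% in galactose and 40.3% in glucose, H2B genes 23.6% and 23.3%, H3 genes 22.1% and 23.8%, and H2A genes 12.1% and 12.5%. In the long-enriched protocol H3 genes took the most, with 32.9% in galactose and 31.997% in glucose. There H4 genes took 29.2% and 28.97%, H2B genes 19.9% and 22.3%, and H2A genes 17.97% and 16.7%. Which histone had the most reads thus depended on the protocol. The 4 histones enter the nucleosome in equal number, and their reads were not equal in either medium or protocol. Shares of a column depend on what else it holds, and the scaled comparison between media follows below.

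The copies of each histone contributed unequally, except for H2A. HTA1 gave 48.7% of H2A reads in galactose (interval 48.0 to 49.5) and 49.7% in glucose (48.8 to 50.6). HTB1 gave 10.4% of H2B reads in galactose and 9.93% in glucose, and HHT1 gave 5.65% of H3 reads in galactose and 4.56% in glucose. HHF1 gave 40.2% of H4 reads in galactose (39.9 to 40.6) and 35.5% in glucose (35.0 to 36.0). HHF1 and HHT1 thus took a larger share of their histone's reads in galactose than in glucose, by intervals that do not overlap. For H2A and H2B the intervals of both media overlapped.

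The copies are near-identical in their coding sequences, with 93.7% identity between HTA1 and HTA2, 87.9% between HTB1 and HTB2, 93.2% between HHT1 and HHT2 and 97.4% between HHF1 and HHF2. Their 3' UTRs had 51.9%, 42.9%, 39.6% and 44.3% identity in the same order, about as far apart as those of HTA1 and HTZ1 (49.1%). The mapped tags come from the ends of molecules, and the first 30 and the last 30 bases of each member's most used molecule occur once in the genome. Reads with other ends were not checked in this way, so a wrong assignment between copies for a part of them was not tested.

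Within the divergent couples the H2A-H2B couples were unbalanced in opposite directions. HTA1 had 2.40 times the reads of HTB1 in galactose and 2.68 times in glucose, whereas HTB2 had 3.41 times the reads of HTA2 in galactose and 3.34 times in glucose. HHF1 had 13.6 times the reads of HHT1 in galactose and 13.2 times in glucose. HHF2 and HHT2 were nearly balanced, at 1.21 times in galactose and 1.15 times in glucose. Over both media the fold between the genes of a couple was 2.51, 3.38, 13.4 and 1.18 for HTA1-HTB1, HTA2-HTB2, HHT1-HHF1 and HHT2-HHF2, beside a median of 4.46 over the 592 divergent pairs. HHT2-HHF2 was more even than all but 5.07% of those pairs, and HHT1-HHF1 less even than 70.3% of them.

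No histone gene passed the threshold for a difference between media. After scaling with the trimmed mean of M values, a gene was called when it differed by at least 2-fold, the same way, in the standard and the long-enriched protocol, with both intervals excluding 1, at 20 reads or more per protocol. Of the 9 histone genes 0 were called in either direction, beside 228 of 3581 measured genes called higher in galactose (6.37%) and 90 called lower (2.51%). In the standard protocol the log2 ratios of the 9 ran from 0.09 to 0.47 with a median of 0.20, beside 0.02 over all measured genes. All 9 were above 0, and 1830 of the 3581 genes were. In the long-enriched protocol 7 of 9 were above 0, with a median of 0.29 beside 0.01 over all genes.

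The H4 gene HHF1 had the highest ratio in the standard protocol. It had 25533 reads in galactose and 13418 in glucose, which is 1.38-fold after scaling (interval 1.35 to 1.41), and 3276 and 1839 reads in the long-enriched protocol, or 1.24-fold (1.17 to 1.32). HHT1, which shares its upstream region, had 1882 reads in galactose and 1016 in glucose, or 1.34-fold (1.24 to 1.45). In the long-enriched protocol it had 244 and 112 reads, or 1.52-fold (1.21 to 1.92). These were the highest ratios in the standard protocol, although the interval of HHT1 overlapped that of HTB1.

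HHF2 had 37915 reads in galactose and 24368 in glucose, or 1.13-fold (1.11 to 1.15), but 3870 and 2706 in the long-enriched protocol, or 0.997-fold (0.949 to 1.05). HHT2 had 31439 and 21266 reads, or 1.07-fold (1.05 to 1.09), and 7799 and 4908 in the long-enriched protocol, or 1.11-fold (1.07 to 1.15). For HHF2 the excess in galactose was therefore seen in the standard protocol alone.

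The H2A genes differed little between media. HTA1 had 8893 reads in galactose and 5826 in glucose, 1.11-fold after scaling (1.07 to 1.14), and 2559 and 1580 in the long-enriched protocol, 1.13-fold (1.06 to 1.20). HTA2 had 9355 and 5903 reads, 1.15-fold (1.11 to 1.19), and 1837 and 1046 in the long-enriched protocol, 1.22-fold (1.13 to 1.32). Both copies thus lay above glucose by a small amount in both protocols.

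The H2B gene HTB2 had 31898 reads in galactose and 19688 in glucose, 1.18-fold (1.15 to 1.20), but 4785 and 3471 in the long-enriched protocol, 0.961-fold (0.920 to 1.00). HTB1 had 3703 and 2170 reads, 1.24-fold (1.17 to 1.31), and only 92 and 27 in the long-enriched protocol, 2.38-fold (1.53 to 3.80). HTZ1 had 1140 reads in galactose and 778 in glucose, 1.06-fold (0.969 to 1.17), and 423 and 229 in the long-enriched protocol, 1.29-fold (1.09 to 1.52). HTB1 in the long-enriched protocol was the 1 value past 2-fold among the 18, and its standard value was below 2-fold.

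These ratios rest on the scaling. Scaling by total reads assigned to genes raised the median of all measured genes by 0.47 in the standard and by 0.15 in the long-enriched protocol (log2), and it put HTB2 and HHF2 above 0 in the long-enriched protocol.

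**Figure D3:**
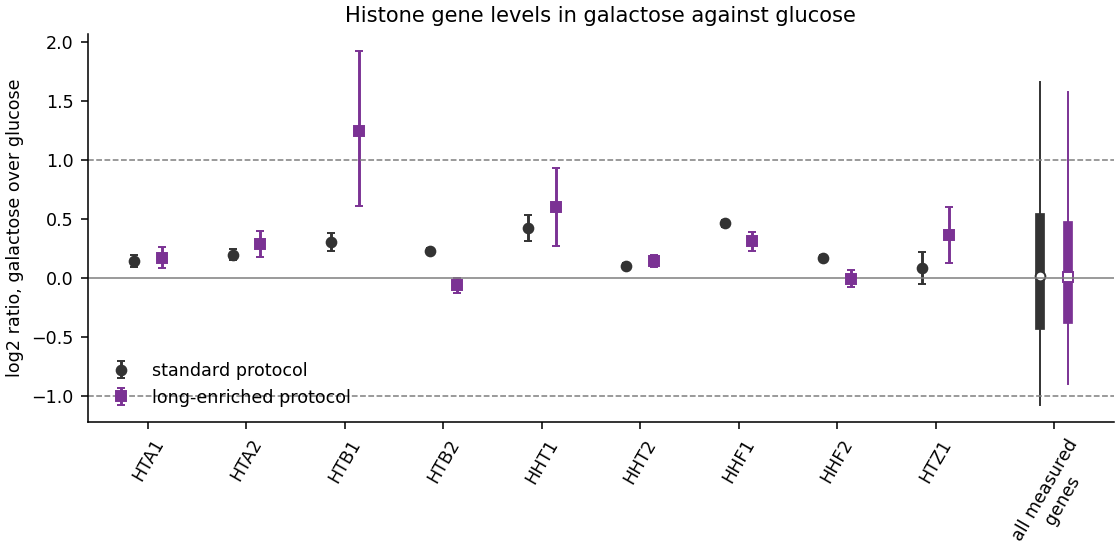
Log2 ratio of galactose over glucose for the 9 histone genes in the standard protocol (black circles) and the long-enriched protocol (purple squares), with exact 95% intervals. At the right the thick bars hold the middle 50% and the thin lines the middle 90% of 3581 measured genes, and the open symbol is their median. Dashed lines mark 2-fold. The standard values lie between 0.09 and 0.47, and only HTB1 in the long-enriched protocol lies past a dashed line.

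Start sites and 5' UTR lengths differed widely between the 9 genes. HHT2 had the shortest 5' UTR, with a mean of 18.4 nt in galactose and 17.8 nt in glucose, and 86.9% of its molecules in galactose and 88.2% in glucose began at the same base, 16 nt before the start codon. That share was higher than in 99.3% of 2305 genes compared. HHT1 had a mean of 23.9 nt in galactose and 24.0 nt in glucose, with 57.0% and 60.9% of molecules starting 28 nt before the start codon.

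HTA1 had the longest leader of the core genes, at 76.9 nt in galactose (SD over reads 13.4) and 77.8 nt in glucose (15.6), more than its copy HTA2 at 33.5 nt (18.6) and 33.1 nt (13.6). HTZ1 had 114 nt in galactose (58.7) and 107 nt in glucose (47.9), and 4.82% of its molecules in galactose and 2.44% in glucose began 200 to 500 nt before the start codon. HTB2 carried a second group of starts 70 to 110 nt before the start codon, used by 10.7% of molecules in galactose and 9.28% in glucose. In the long-enriched protocol that group took 3.95% in galactose and 3.34% in glucose, so its share depended on the protocol.

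The H2B and H4 genes lay between these. HTB1 averaged 39.8 nt in galactose and 42.0 nt in glucose, HTB2 36.1 and 35.2 nt, HHF1 37.9 and 37.4 nt, and HHF2 30.5 and 30.7 nt. HHF1 had the lowest share of molecules at a single start: its start 39 nt before the start codon took 22.6% in galactose and 17.8% in glucose, and the one at 36 nt took 19.9% in galactose and 21.4% in glucose, where it was the most used. None of the 9 leaders, from the most used start to the start codon, held an ATG, and over all genes 13.0% of such leaders did.

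The choice between start sites moved most with medium in HTB1. Its most used start, 34 nt before the start codon, took 55.3% of molecules in galactose (interval 53.7 to 56.9) and 43.3% in glucose (41.2 to 45.4), while the start at 40 nt took 20.1% and 23.6%. Only 92 and 27 molecules were seen in the long-enriched protocol, where the same start took 69 in galactose and 11 in glucose. The 12.01 percentage points between media in the standard protocol exceeded those of 96.5% of 1301 genes with 200 reads or more in each standard column. For the other 8 genes the change at the most used start was between -3.91 and 6.16 percentage points, beside a median size of 3.27 over the 1301 genes, which 5 of the 9 histone genes exceeded. HHF2 had the next highest, with 44.0% in galactose and 37.8% in glucose at its start 30 nt before the start codon.

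No histone gene passed the threshold for a UTR length difference, set at a 20 nt difference or more that has 1 sign across the protocols. Of the 9 histone genes 0 passed for either UTR, beside 64 of 2666 genes with enough reads for the 5' UTR (2.4%) and 35 for the 3' UTR (1.31%). Galactose minus glucose in the standard protocol ran from -2.20 nt in HTB1 to 7.50 nt in HTZ1 for the 5' UTR, and from -4.06 nt in HTZ1 to 0.33 nt in HHF2 for the 3' UTR.

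The 3' UTRs of the core histone genes were long for yeast. Their mean lengths over both media had a median of 175 nt over the 8 core genes, beside 118 nt over 2305 genes, and 8 of 8 were above that median. HTB1 had the shortest, with 122 nt in galactose and 123 nt in glucose, and HHT2 the longest, with 249 nt in galactose and 248 nt in glucose. The copies differed here too: HTB2 had 200 nt in galactose and 203 nt in glucose, and HHT1 had 156 and 157 nt. HTA1 and HTA2 had 167 and 182 nt in galactose and 168 and 185 nt in glucose. HHF1 and HHF2 were alike, at 175 and 174 nt in galactose and 175 and 174 nt in glucose, and HTZ1 had 170.5 nt in galactose and 175 nt in glucose.

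The spread of poly(A) sites differed between the genes. The shortest window that held 80% of the standard reads was 2 nt wide in HHF2, 9 nt in HHT2, 13 nt in HHT1, 19 nt in HHF1, 20 nt in HTB1 and in HTB2, 23 nt in HTA2 and 26 nt in HTA1, beside a median of 26 nt over 2305 genes. The median of the 8 core genes, 19.5 nt, stood at percentile 37.3 of those genes. The HTB2 window is that of both media together, and it was 16 nt wide in galactose, against 62 nt in glucose, and 62 nt in both media in the long-enriched protocol. HHF2 was narrower than all but 3.25% of those genes, and 69.5% of its molecules in galactose and 65.4% in glucose ended at the same base, 176 nt after the stop codon. The HTZ1 window was 58 nt wide in each medium and protocol. In every gene many further positions were used at a low level, from 59 in HTZ1 to 158 in HTB2, a number that grows with the reads.

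HTZ1, HTB2, HTA1 and HTA2 each had a proximal and a distal group of sites. In HTB2 a distal group 240 to 280 nt after the stop codon took 12.5% of molecules in galactose (interval 12.1 to 12.8) and 16.8% in glucose (16.3 to 17.4), and 18.5% and 23.0% in the long-enriched protocol. In HTZ1 the distal group at 200 to 230 nt took 22.2% in galactose (19.8 to 24.7) and 26.9% in glucose (23.8 to 30.1). The HTB2 intervals were apart in both protocols, with less distal use in galactose, and those of HTZ1 overlapped.

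The H2A genes had closer groups. In HTA1 sites at 170 to 190 nt took 43.4% in galactose and 49.2% in glucose, and 41.7% and 49.2% in the long-enriched protocol. In HTA2 sites at 190 to 200 nt took 28.2% in galactose and 31.7% in glucose, and 37.5% (35.2 to 39.7) and 42.8% (39.8 to 45.9) in the long-enriched protocol. The distal share was therefore lower in galactose in both H2A genes and in both protocols, with intervals that did not overlap. These groups were drawn after the site positions had been seen, and the mean 3' UTR of HTA1, HTA2 and HTB2 differed by -1.28 to -3.39 nt between media.

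Use of the most used poly(A) site was higher in galactose in 8 of 9 genes in the standard protocol, by 2.09 to 5.50 percentage points, and lower in HTZ1. Over 1301 genes the same was true of 55.5%. In the long-enriched protocol 6 of 9 were higher.

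**Figure D4:**
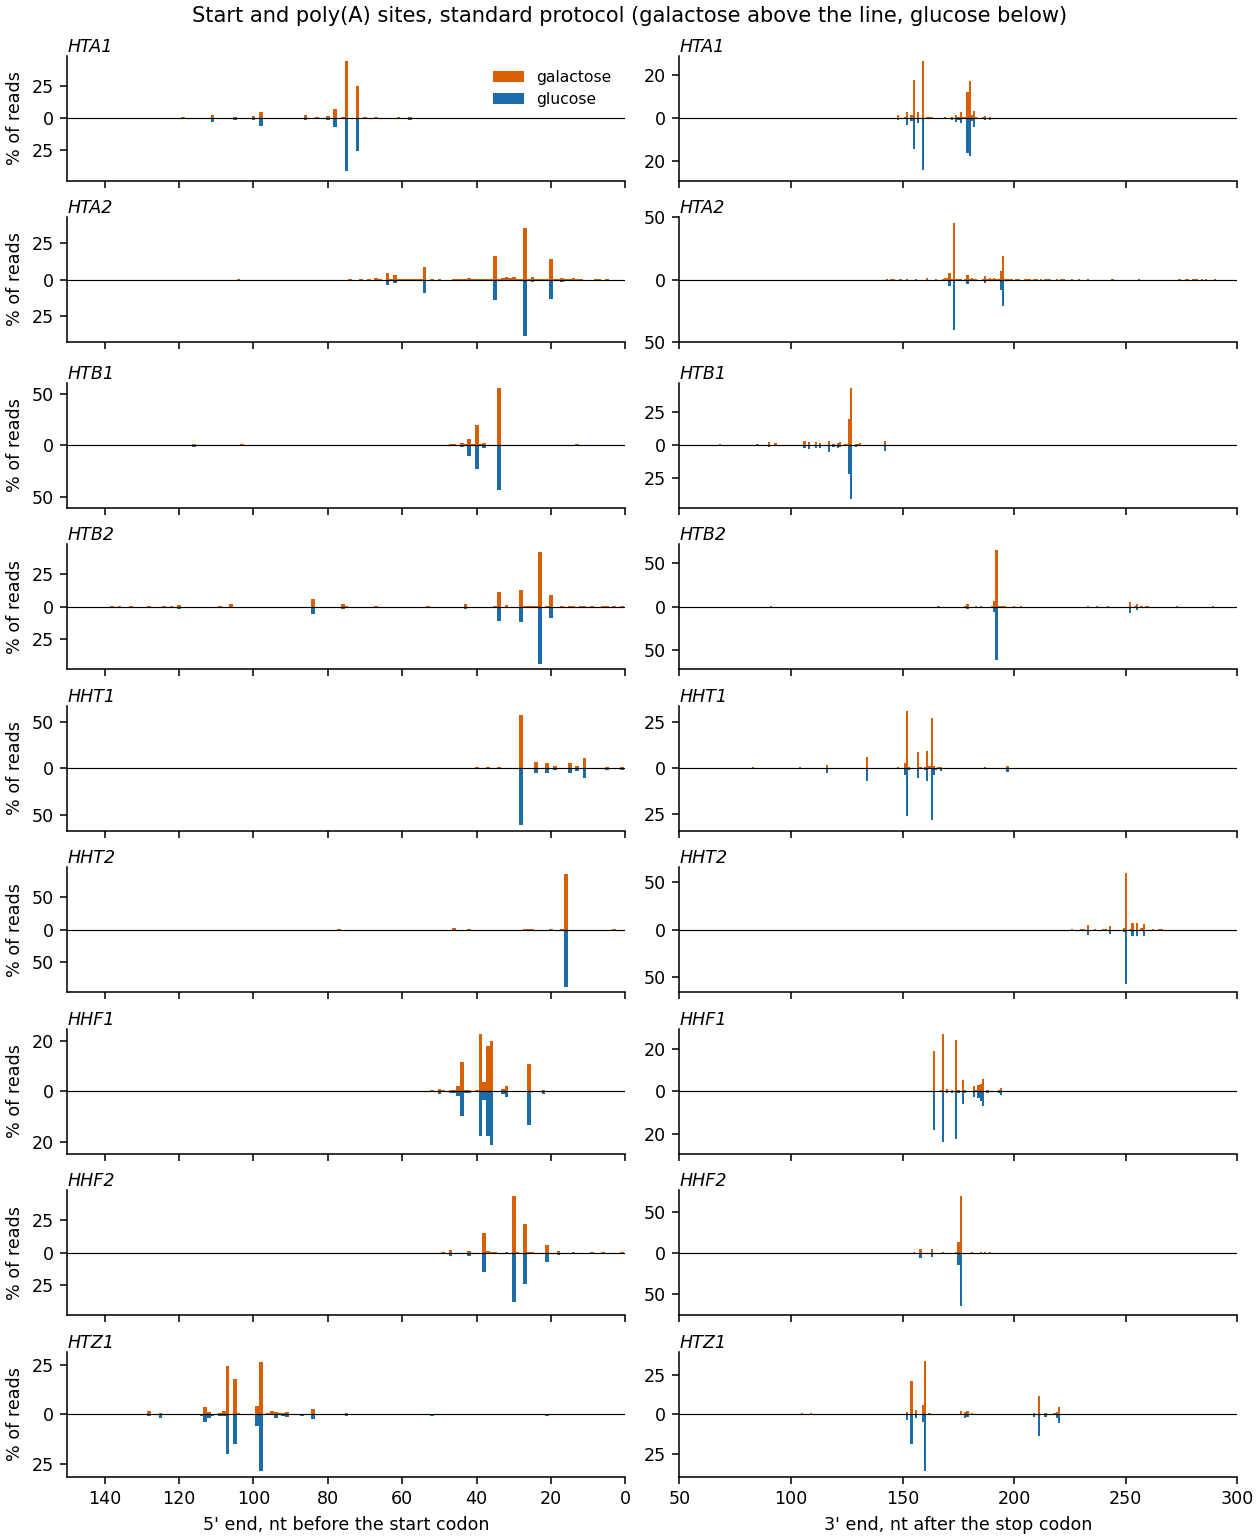
Share of molecules at each 5' end (left, nt before the start codon) and each 3' end (right, nt after the stop codon) for the 9 histone genes in the standard protocol, with galactose above the line and glucose mirrored below it. Positions more than 150 nt before the start codon, or outside 50 to 300 nt after the stop codon, are not drawn. HHT2 starts at a single base in 86.9% of molecules in galactose and 88.2% in glucose, and the highest peak of both media is at the same position except for the starts of HHF1 and the poly(A) sites of HHT1, where neighbouring peaks of like height exchange places.

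The mean 3' UTR depended little on the start, while the share of the most used poly(A) site differed by start in some genes. The mean 3' UTR of molecules from the most used start differed from that of molecules from other starts by -1.29 to 1.20 nt in 8 of 9 genes in each medium, and by 1.88 nt (galactose) and -6.54 nt (glucose) in HTZ1. In HHF2 the most used poly(A) site took 71.9% of molecules from the most used start and 67.7% of the others in galactose, and 65.5% and 65.3% in glucose. The most common pair of ends made up 51.3% of HHT2 molecules and 5.21% of HHF1 molecules over the capped columns.

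Short motifs of promoters and poly(A) regions were found in some genes. TATAAA, searched on the gene's strand from 150 to 30 nt before the most used start, was present in 5 of 9 (HTA1, HTB1, HHT1, HHT2 and HHF1) and in 16.5% of 3581 genes. In the 100 nt before the most used poly(A) site, TATATA, the efficiency element of yeast 3' end formation, was present in 5 of 9 (HTA1, HTB1, HTB2, HHF2 and HTZ1) and in 47.8% of genes, and AATAAA, a form of the positioning element, in 4 of 9 (HTA2, HHT1, HHT2 and HHF2) and in 21.2%. These searches gave letters in a window and not sites in use.

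The poly(A) region of HHF2 runs into a neighbouring gene on the opposite strand. KTR5, a putative mannosyltransferase gene, ends 166 nt after the HHF2 stop codon, and 89.5% of HHF2 molecules in galactose and 87.4% in glucose ended past the KTR5 stop codon, inside its coding sequence. KTR5 itself had 12 reads in galactose and 9 in glucose in the standard protocol. Of 1932 measured genes with a convergent neighbour, 345 (17.9%) had more than 50% of their reads reaching past that stop codon, with a median share of 0.778%, and 210 had a higher share than HHF2. HTB2 and ECM15 are also convergent, 265 nt apart, and 1.34% of HTB2 molecules in galactose and 2.33% in glucose passed the ECM15 stop codon. ECM15 had 7648 reads in galactose and 3981 in glucose.

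Histone molecules are short, and the long-enriched libraries held fewer of them. The mean span from start to poly(A) site ran from 517 nt in HHF2 to 688 nt in HTZ1. All 9 genes were 2-fold or more lower in the long-enriched than in the standard column in both media, as were 1557 of 3581 genes (43.5%). HTZ1 was 3.20-fold lower in galactose (interval 2.86 to 3.58) and 3.66-fold lower in glucose (3.15 to 4.25). HHF2 was 11.6-fold lower in galactose (11.2 to 12.01) and 9.69-fold lower in glucose (9.31 to 10.1). The median log2 ratio over all measured genes was itself -0.89 in galactose and -0.80 in glucose, so the sizes of these folds rest on the scaling. With scaling by total reads, HTA1, HHT2 and HTZ1 did not reach 2-fold in both media. The log2 ratio of HHF2 was then -2.43 in galactose and -1.94 in glucose, against -3.54 and -3.28 in the main scaling.

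HTB1 was lowered far more than other genes of its length. It had 92 long-enriched reads against 3703 standard reads in galactose, and 27 against 2170 in glucose, which is 47.7-fold lower in galactose (38.8 to 59.3) and 86.5-fold lower in glucose (59.3 to 132). Of 155 genes with a mean span within 50 nt of HTB1, 0 had a lower ratio in galactose and 1 had in glucose, and the log2 ratio of HTB1 was -5.57 in galactose and -6.41 in glucose, against medians of -2.43 and -2.29 over those genes. Its copy HTB2 was 7.90-fold lower in galactose and 6.10-fold lower in glucose. As a result HTB1 gave 1.89% of H2B reads in galactose and 0.772% in glucose in the long-enriched protocol. With scaling by total reads, which moves all genes alike, the log2 ratio of HTB1 was -4.46 in galactose and -5.07 in glucose.

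The other copies also took other shares there. HTA1 gave 58.2% of H2A reads in galactose and 60.2% in glucose, HHT1 3.03% of H3 reads in galactose and 2.23% in glucose, and HHF1 45.8% of H4 reads in galactose and 40.5% in glucose. HHT2, the longest core molecule, exceeded HHF2 in the long-enriched protocol, with 66.8% of the couple's reads in galactose and 64.5% in glucose, against 45.3% and 46.6% in the standard one. Levels compared between histone genes therefore depend on the protocol, while the comparison between media is made within each protocol. The part of molecule length in these shares was not tested gene by gene.

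**Figure D5:**
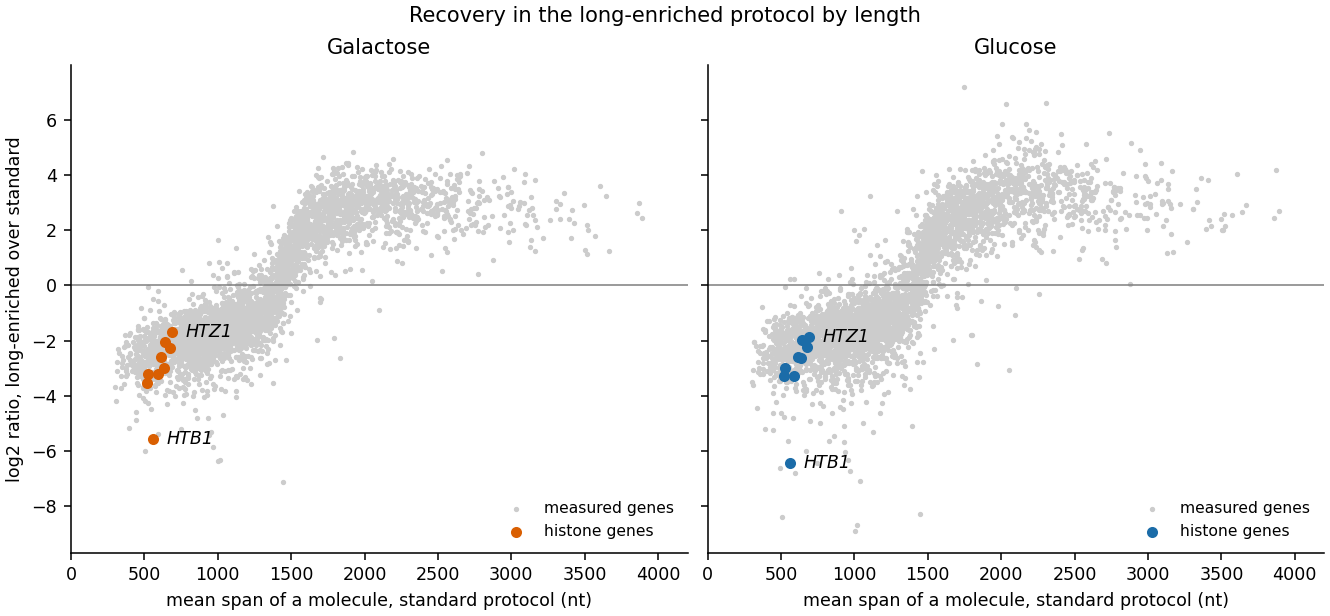
Log2 ratio of long-enriched over standard reads, scaled, against the mean span of each gene's molecules in the standard protocol (nt), for galactose (left) and glucose (right). Grey points are measured genes and coloured points the 9 histone genes. HTB1, at -5.57 in galactose and -6.41 in glucose, lies apart from the other 8.

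Most molecules that overlapped a histone coding sequence covered it whole. The share was 92.4% or more in each of the 8 core genes in the standard protocol and 88.1% in galactose and 89.4% in glucose in HTZ1, where 11.7% and 10.1% of molecules began inside the coding sequence. In the standard protocol, molecules ending inside a coding sequence made up 0.976% of HTA2 molecules in glucose and less in the other genes and in galactose. Over the 9 genes the median share of 5' ends inside the coding sequence was 2.31% in galactose and 2.73% in glucose. The medians over all genes with reads were 28.9% and 28.2%. In the long-enriched protocol the medians were 2.11% and 3.39% over the 9 genes, beside 8.97% and 9.76% over all genes. The genes compared were not matched for coding length.

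The non-capped control, in which 5' ends mark molecules without a cap, placed many more 5' ends inside the coding sequences. In capped standard libraries 1.10% to 11.7% of 5' ends in galactose and 1.40% to 10.1% in glucose fell inside a histone coding sequence, against 43.4% to 98.7% and 60.4% to 100% in the non-capped control. Over all genes with reads the control median was 100% in each medium, the highest share possible. In galactose 9 of 9 histone genes and in glucose 6 of 9 lay below it, while HTB1, HHT1 and HTZ1 were at 100% in glucose. The lower quartile over all genes with reads was 100% in galactose and 98.2% in glucose. Lying below the median takes only 1 read that begins outside the coding sequence. The genes were not matched for reads, so this count alone does not set the histone genes apart. For HHF2 the values were 1.10% in galactose and 1.40% in glucose in capped libraries, against 58.0% and 60.4% in the control. The share within 50 nt of the most used capped start was 98.9% for HHF2 in galactose and 98.6% in glucose, against 46.3% and 48.3% in the control. That window reaches into the coding sequence, so these control shares overlap those counted inside it, and within 10 nt of the start the control shares of HHF2 were 14.0% in galactose and 5.33% in glucose. For HTZ1 it was 82.8% and 85.2%, against 0 of 306 and 0 of 288 reads in the control, which allows shares of up to 1.20% and 1.27%. With 1 control library per medium, these values have no replicate.

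Other genes of histone supply were measured as lists. Of 12 regulators of histone genes, 3 passed the filter on reads, and 0 were called higher and 0 lower in galactose. ASF1, a chaperone of H3 and H4, had 874 reads in galactose and 472 in glucose, 1.34-fold (1.20 to 1.51), and RTT106, which takes part in repression of histone genes, had 152 and 102, 1.08-fold (0.836 to 1.40). HHO1, the linker histone H1 gene, had 342 and 228 reads, 1.09-fold (0.918 to 1.29), and CSE4, the centromeric H3 gene, had 104 and 56, 1.35-fold (0.964 to 1.90). These are folds of the standard protocol. In the long-enriched protocol ASF1 was 1.56-fold (1.27 to 1.93), HHO1 0.951-fold (0.530 to 1.73) and CSE4 3.66-fold (1.23 to 14.7), the last from 21 reads in galactose and 4 in glucose. None passed the call.

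Of 12 histone chaperones 7 were measured, with a median log2 ratio of -0.25 (standard) and -0.27 (long-enriched). CHZ1, a chaperone for H2A.Z, had 1389 reads in galactose and 778 in glucose, 1.30-fold (1.19 to 1.42), and VPS75, a chaperone of the Nap family, had 518 and 499, 0.753-fold (0.665 to 0.853). Of 13 genes of the SWR1 complex, which deposits H2A.Z, 9 were measured, with a median of -0.13 (standard) and -0.05 (long-enriched). RVB1, a helicase subunit, had 439 reads in galactose and 315 in glucose, 1.01-fold (0.873 to 1.17). SWC5, another subunit, had 272 and 252, 0.783-fold (0.657 to 0.933). No gene of either list was called.

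Since core histone genes are transcribed in S phase, genes of cell cycle stages were listed beside them. Of 24 S-phase genes 14 were measured, with a median log2 ratio of 0.67 (standard) and 0.20 (long-enriched). Of 12 G2/M genes 4 were measured, with medians of 0.64 and 0.19, and of 12 M/G1 genes 10, with medians of 0.58 and 0.34. By the standard protocol 11 of the 14 S-phase genes, 4 of the 4 G2/M genes and 6 of the 10 M/G1 genes were above 0. By the long-enriched one these were 8, 3 and 7. In the 3 lists 0 genes were called. The S-phase members with the most reads were RFA2, a subunit of replication protein A, with 661 reads in galactose and 554 in glucose, and POL30, the sliding clamp PCNA, with 652 and 455. Both stood below the median of their list after scaling: by the standard protocol RFA2 was 0.866-fold (0.772 to 0.971) and POL30 1.04-fold (0.921 to 1.17). Long-enriched reads gave 0.655-fold (0.551 to 0.778) for RFA2 and 0.869-fold (0.637 to 1.19) for POL30. The G2/M members were low, with HST3, a histone deacetylase gene, at 108 and 71 reads, 1.10-fold (0.810 to 1.51), and KIN3, a protein kinase gene, at 59 and 26, 1.65-fold (1.02 to 2.72). Of the M/G1 genes, CTS1, a chitinase, had 923 reads in galactose and 674 in glucose, 0.993-fold (0.899 to 1.10), and PIR1, a cell wall protein, had 498 and 679, 0.532-fold (0.473 to 0.598). These 4 folds are of the standard protocol, by which CTS1 and PIR1 stood below the median of their list. Long-enriched reads gave 0.838-fold (0.729 to 0.964) for HST3 and 1.27-fold (0.991 to 1.64) for KIN3. They gave 1.27-fold (1.22 to 1.33) for CTS1 and 0.804-fold (0.579 to 1.12) for PIR1. The share of cells at each stage was not measured, and its part in the histone ratios was not tested.

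The genes whose pattern over the 4 capped columns lay nearest to the mean of the 8 core genes were DYN2, PRE7, BET3, VTA1 and SMX2, by distance between log2 CPM centred per gene. DYN2 lay at a distance of 0.0865, with 38.4 CPM in galactose and 25.1 in glucose by the standard protocol, and 9.27 and 6.19 by the long-enriched one. SMX2, the last of the 5, lay at 0.213, and the median over all measured genes was 2.54. Of the core genes themselves HHF1 was nearest, at 0.169, and HTB1 farthest, at 2.89, so the mean is one that HTB1 departs from.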

How the data were processed

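TIF-Seq libraries of yeast were analysed from the table the authors deposited. Its values are counts of reads for each combination of a 5' and a 3' position, 1 column per group of libraries, per the file headers and note. CASAVA, Novoalign 2.07.10 and the build R64 are given in the submitters' processing notes. Filters and the handling of duplicate reads are not given in the sources used here. The table holds 2502656 pairs with spans from 40 to 5000 nt, and all 6 count columns entered the analysis. Every position lay within its chromosome of the R64 reference.

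Reads were assigned to 6002 coding sequences with Python 3.11.15 and pandas 2.3.3, and 5.46% to 91.9% of a column's reads found a gene (lowest in the non-capped control). For scaling, edgeR 4.0.16 (R 4.3.3) computed a trimmed mean of M values from the 2 columns of each comparison, and DESeq2 1.42.0 size factors and total reads served as alternatives. Since columns sum libraries, the planned edgeR test for single libraries could not be run. Log2 ratios carry a pseudocount of 0.5 read, and folds and their exact conditional binomial intervals carry none. Shares have exact Clopper-Pearson intervals from scipy 1.17.1. Identities are from global alignments with Biopython 1.88. The call rule was tested on simulated data. Named list genes are the 2 with the most reads in each list. The members and lists were chosen with earlier results of these data known.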

Additional observations from a re-analysis of the deposited data

Results flagged for a closer look

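Reads on the strand opposite to HTZ1, which enter none of the comparisons above, numbered 63 in galactose and 45 in glucose in the long-enriched protocol, against 9 and 3 in the standard one and 0 in both non-capped controls. They formed 76 pairs of ends, 88.3% of these reads covered the whole HTZ1 coding sequence, 92.5% began downstream of it, and their mean span was 1897 nt. Sense reads over HTZ1 were 445 in galactose and 246 in glucose in the same long-enriched columns. What the antisense reads stand for was not tested.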

How the results depend on the processing

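Each result was recomputed under the alternatives, 267 values in all, of which 235 kept their direction and their side of the threshold or moved within their error. Scaling by total reads gave 348 genes higher and 56 lower in galactose, medians of 0.67 (standard) and 0.44 (long-enriched) over the 9 histone genes, and 435 genes lower in the long-enriched columns. It reversed the long-enriched log2 ratios of HTB2 (0.092) and HHF2 (0.15). A minimum of 100 reads left 137 genes higher in galactose. UTRs of at most 500 nt gave 16 genes with a shifted 3' UTR, and pairs with 2 reads or more gave 36 with a shifted 5' UTR. A window of 10 nt lowered the median share of non-capped 5' ends near the most used start to 3.25% in galactose and 4.96% in glucose. Under total reads HTA1, HHT2 and HTZ1 were no longer 2-fold lower in both media in the long-enriched against the standard columns, though HHT2 still was in galactose (-1.15 on the log2 scale, against -0.88 in glucose). No paired analysis was possible because the deposited columns sum the libraries of a group, and leaving out a replicate was not run for the same reason. Reads per column limit HTB1 most, with 27 long-enriched reads in glucose.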
